A study of Mus musculus with 4 samples.

Results

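Solute carriers are membrane proteins that move nutrients, ions, metals and metabolites across cellular membranes. The genes described here are every gene in the deposited table whose symbol begins with Slc and a digit or with Slco, apart from the mitochondrial carriers Slc25a, grouped by the class of substrate they carry. The choice by symbol gave 49 genes of the 2701 in the table, from 23 gene families. GENCODE annotates 338 protein-coding solute carriers of this kind in the mouse. Those without a row have no values here.

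RNA was sequenced from the pyloric stomach of C57BL/6 mice, 2 libraries per genotype, both collected 8 weeks after tamoxifen. Mice called WT were Lats1fl/fl;Lats2fl/fl and carried no Cre, so they have both floxed genes in intact form. Mice called Lats1/2iΔLgr5 were Lats1fl/fl;Lats2fl/fl;Lgr5-CreER, in which the tamoxifen-activated recombinase is driven from Lgr5, a gene of gland-base stem cells, and deletes Lats1 and Lats2 in those cells and their descendants. LATS1 and LATS2 are the Hippo pathway kinases that hold back the coactivators YAP and TAZ; the design asks what their loss changes in the transcripts. Neither the age of the animals at collection nor the number of mice per library is given in the sources used here, so p-values measure the spread between libraries, which may be technical. The labels call the material pyloric epithelium, but it was taken as whole cryosections: the epithelial genes Cdh1, Krt8 and Krt19 were abundant, and the fibroblast collagen genes Col1a2 and Col3a1 were also counted.

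Carriers of a family usually share a fold and a type of substrate, and members differ in tissue, membrane and direction of transport. Exchangers trade a proton or an anion for another ion, symporters use the sodium gradient, and facilitative carriers let a substrate run down its own gradient. In the stomach they supply amino acids and sugars to a rapidly renewing epithelium, load the Golgi with sugar donors for mucin, and exchange protons, bicarbonate and chloride around acid secretion. Nucleoside and folate carriers feed DNA synthesis in cells that divide.

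The table holds whole-number read counts per gene. Counts of the listed genes totalled 13413629 to 17689207 per library, and solute carriers took 0.861% to 0.919% of them. Levels below are counts divided by the authors' size factors (normalized counts). Lats1, the deleted gene that could be checked, had 2152 and 1974 normalized counts (WT) against 942.5 and 1129 (Lats1/2iΔLgr5), and Lats2 was not among the listed genes; which Lats1 exons the floxed allele removes is not given in the labels, so reads from the remaining exons may be among these. The table holds only genes that passed the authors' DESeq2 threshold (adjusted p of 0.05). Sections mix cell types, so fewer cells of a type and less RNA per cell cannot be told apart.

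Among the 49 solute carriers, 14 were higher and 35 lower in the Lats1/2iΔLgr5 pylorus. Over the genes the authors tested, inferred as 13141, 8.81% were called higher and 11.7% lower. Because the table is already limited to called genes, nothing can be read from the fact that its solute carriers were called. Repeating the test on the counts with edgeR's quasi-likelihood method and the authors' size factors gave the same 14 higher and 35 lower calls. Its adjusted p ran from 0.0117 to 0.0345 for the 49, and 42.9% and 57.1% of the listed genes were called higher and lower. The repeat used the same counts and only genes already called, so it is no separate evidence. Every edgeR adjusted p here is adjusted over the listed genes, not over all genes tested. In all 49 the normalized counts of the 2 genotypes did not overlap, which held for 99.9% of all listed genes. Scaling by factors computed from the listed genes alone turned the share of higher calls among the called solute carriers from 28.6% to 51.9% (TMM) or 56.0% (DESeq2 median ratio), and over all listed genes from 42.9% to 70.1% or 72.8%. The higher calls stayed at 14, and the lower calls became fewer. Below, rose and fell refer to both of these calls. Log2 fold changes are those of edgeR with their standard error (SE), a value written as N-fold is the ratio of mean normalized counts, and n = 2 libraries per genotype throughout.

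Classes were assigned by family number with exceptions, and direction differed between some of them. Rows were present for 3 of 23 annotated nucleoside and folate carriers, 7 of 46 sugar and 6 of 22 lipid carriers. They were present for 6 of 70 amino acid, 5 of 33 metal and 17 of 121 anion and ion carriers. All 3 listed nucleoside and folate carriers rose (median log2 fold change 1.45). All 7 genes placed in the sugar class fell (median -0.83), among them Slc35b1 and Slc35e3, which stand there by family number although Slc35b1 is known to carry ATP and the substrate of Slc35e3 is not settled. All 6 genes placed in the lipid class fell (median -0.86), among them Slc44a4, a choline family member that carries a vitamin. So did all 5 carriers whose substrate is unsettled or outside the classes (median -0.68). Amino acid carriers divided evenly, 3 higher and 3 lower, metal carriers gave 3 higher and 2 lower, and anion and ion carriers gave 5 higher and 12 lower. The median over the 49 genes was -0.68 and over all listed genes -0.50, and 28.6% of the solute carriers rose against 42.9% of all listed genes. These are descriptions of the listed genes, with no test of a difference between classes.

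**Figure D1:**
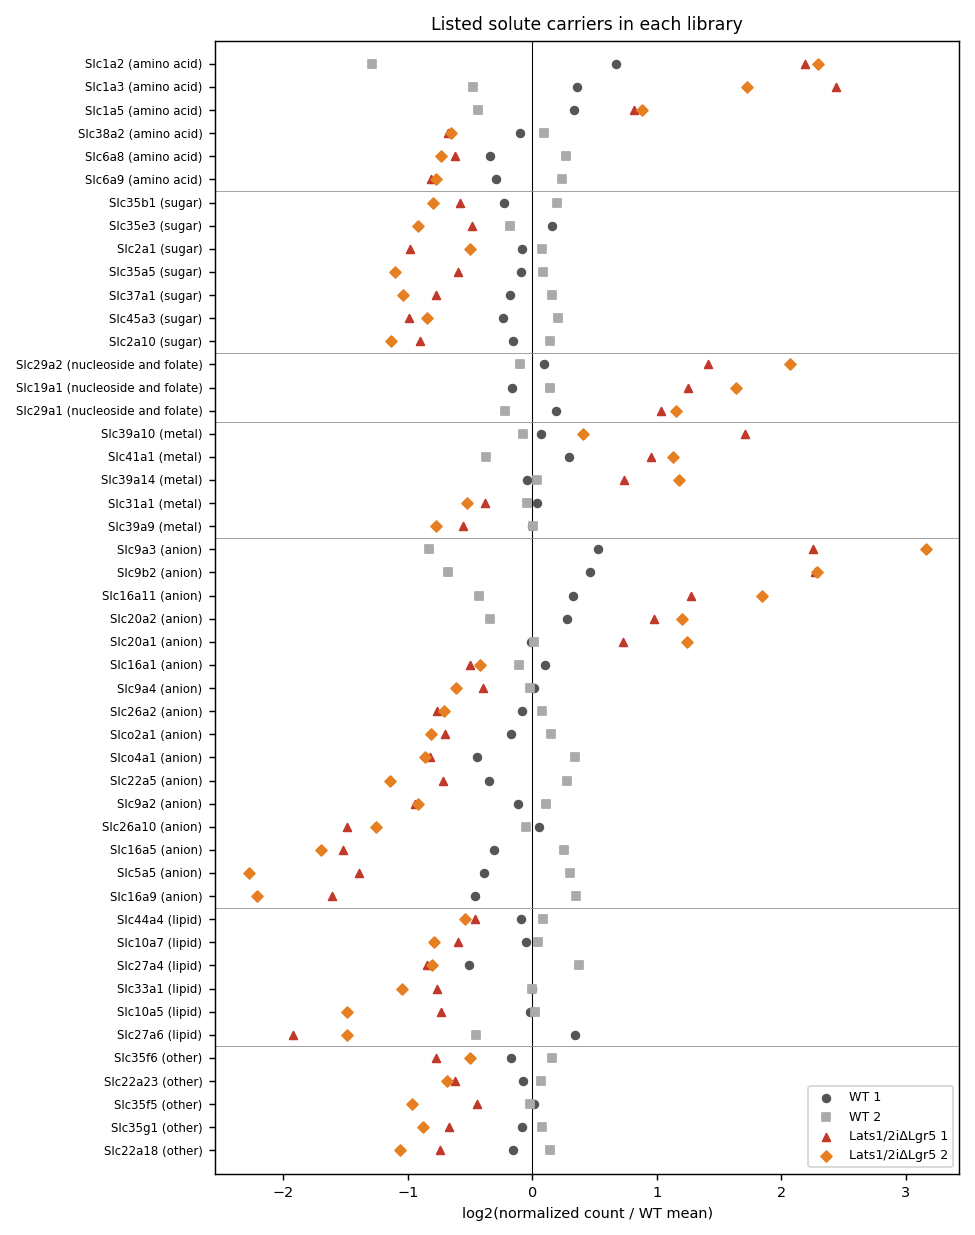
Normalized count of 48 of the 49 listed solute carriers in each of the 4 libraries, as log2 of its ratio to the mean of the WT libraries; circles and squares are WT 1 and 2, triangles and diamonds Lats1/2iΔLgr5 1 and 2, and lines part the substrate classes. The Lats1/2iΔLgr5 libraries stand to the right of both WT libraries in the 14 genes that rose and to the left in the 34 shown that fell, and the libraries of the 2 genotypes do not overlap in any gene shown.

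The 3 listed genes placed with the nucleoside and folate carriers all rose. Slc19a1 (ENSMUSG00000001436, chromosome 10, 77032241 to 77061002, GRCm38), the reduced folate carrier that brings reduced folates into cells, was at 153 and 189 normalized counts in WT, against 406 and 531 in Lats1/2iΔLgr5. Both Lats1/2iΔLgr5 libraries lay above both WT libraries, and the log2 fold change was 1.45 ± 0.26 (edgeR adjusted p = 0.0118). Slc29a1 (chromosome 17, 45585200 to 45599606), which encodes the main equilibrative nucleoside transporter of the plasma membrane, was at 179 and 135 in WT and 321 and 349 in Lats1/2iΔLgr5, a log2 fold change of 1.10 ± 0.27. Its paralog Slc29a2, a transporter that also takes nucleobases, was far less abundant, at 24.0 and 21.0 in WT and 59.8 and 94.6 in Lats1/2iΔLgr5, and rose by 1.78 ± 0.48 on the log2 scale. Per kilobase of exon, WT held 39.1 normalized counts of Slc29a1 and 7.44 of Slc29a2.

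Listed enzymes of folate and nucleotide metabolism also rose. The list, called folate and nucleotide use here, includes enzymes that make nucleotides, and not all of them take a carried substrate. Of 20 genes of folate and nucleotide use, 15 had a row and each of them rose, where 8.81% of all genes tested were called higher. The others have no values here. Log2 fold changes of the 15 ran from 0.52 to 2.15, with 1.30 as the median. Mthfd1, which interconverts one-carbon forms of folate, rose 3.42-fold, and Ctps, which makes CTP, rose 4.44-fold. Gart and Impdh2, of purine synthesis, rose 2.69-fold and 2.47-fold. The carriers' changes lay within the range of these enzymes.

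The listed genes of the sugar class fell, in both the plasma membrane and the secretory pathway. Slc2a10 (ENSMUSG00000027661, chromosome 2, 165503787 to 165519917), a facilitative carrier of the glucose transporter family, was at 2726 and 3362 normalized counts in WT, against 1626 and 1386 in Lats1/2iΔLgr5. With the WT libraries well apart from the Lats1/2iΔLgr5 libraries, its log2 fold change was -1.02 ± 0.17 (edgeR adjusted p = 0.0117). Slc2a1 (chromosome 4, 119108711 to 119137983), the basal glucose transporter GLUT1, was at 3856 and 4329 in WT and 2068 and 2885 in Lats1/2iΔLgr5, a log2 fold change of -0.72 ± 0.19. Slc37a1, which exchanges glucose 6-phosphate for phosphate, was at 5004 and 6351 in WT and 3329 and 2768 in Lats1/2iΔLgr5 and fell 1.86-fold. Slc45a3, a member of the sugar transporter family first known as prostein, was at 6687 and 9073 in WT and 3973 and 4385 in Lats1/2iΔLgr5 and fell 1.89-fold; a same-strand transcript, Gm29103, shares 13.5% of its exon bases.

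The 3 listed members of the Slc35 family placed with the nucleotide sugar carriers also fell. Slc35b1, which carries ATP into the endoplasmic reticulum and belongs to the nucleotide sugar family, was at 3448 and 4609 in WT and 2689 and 2319 in Lats1/2iΔLgr5. Slc35a5, a Golgi member of the family, was at 888 and 1004 in WT and 624 and 442 in Lats1/2iΔLgr5 and Slc35e3 at 1827 and 1443 in WT and 1165 and 864 in Lats1/2iΔLgr5. Their log2 fold changes were -0.69 ± 0.19, -0.83 ± 0.23 and -0.69 ± 0.22, in the order named.

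Of 15 genes of hexose use, 4 were listed and fell, where 11.7% of all genes tested were called lower, and the other 11 have no values here: Aldoa and Gpi1 fell 1.52-fold and 1.53-fold, Ldha, which makes lactate, fell 1.66-fold, and Pfkp, a phosphofructokinase, fell 1.96-fold. Of 13 genes that make or use nucleotide sugars, 6 were listed and all 6 fell (median log2 fold change -0.89), beside the same 11.7% of all genes tested. Uap1, which makes UDP-N-acetylglucosamine, fell 1.78-fold. Ugdh, which makes UDP-glucuronate, and Ugp2, which makes UDP-glucose, fell 2.15-fold and 2.07-fold, and Fut2, the fucosyltransferase of secreted mucin, fell 1.93-fold. Surface mucous cells make much of this mucin, and all 4 of their markers were listed and fell; their summed level was 4326069 and 4578813 normalized counts in WT and 2329384 and 1898614 in Lats1/2iΔLgr5. The part of this cell type in the falls of sugar carriers was not tested.

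**Figure D2:**
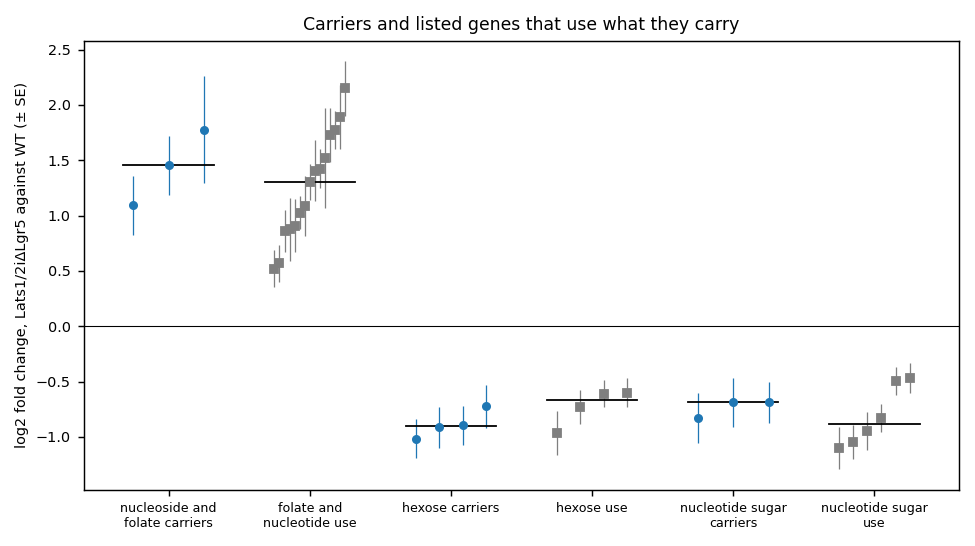
Log2 fold change with its SE (n = 2 libraries per genotype), with the median of each group as a line. Blue circles are listed carriers, and grey squares are listed genes of folate and nucleotide, hexose and nucleotide sugar use. Slc35b1 and Slc35e3 are placed with the nucleotide sugar carriers by family number, not by a known shared substrate. The nucleoside and folate carriers and the 15 genes of folate and nucleotide use all lie above 0. The sugar carriers and the genes of the hexose and nucleotide sugar groups all lie below 0. The groups named for use include enzymes that make nucleotides or nucleotide sugars.

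Amino acid carriers went both ways by family. The 3 listed members of Slc1, the family of glutamate and neutral amino acid carriers coupled to sodium, all rose. Slc1a3 (ENSMUSG00000005360, chromosome 15, 8634124 to 8710764), a glutamate and aspartate carrier, was at 102 and 57.4 normalized counts in WT, against 432 and 263 in Lats1/2iΔLgr5. Every Lats1/2iΔLgr5 value was above every WT value although the replicates of each genotype were far apart, and the log2 fold change was 2.13 ± 0.42 (edgeR adjusted p = 0.0127). Slc1a2, the main glutamate carrier of astrocytes in the brain, was barely expressed in WT, at 42.9 and 11.0 in WT and 123 and 132 in Lats1/2iΔLgr5. Its log2 fold change of 2.25 ± 0.66 rests on low WT counts and ranged from 1.57 when WT 2 was left out to 3.52 when WT 1 was. The call of Slc1a2 depended on each Lats1/2iΔLgr5 library. Slc1a5 (chromosome 7, 16781340 to 16798274), a plasma membrane carrier of glutamine, was the most abundant of the 14 genes that rose, at 1586 and 929 in WT and 2218 and 2321 in Lats1/2iΔLgr5; WT 1 was well above WT 2 and below both Lats1/2iΔLgr5 libraries, and the log2 fold change was 0.85 ± 0.27. Slc1a2 and Slc1a3 are glial genes in the nervous system, and none of 4 glial markers (Gfap, S100b, Sox10 and Fabp7, chosen after the values were seen) was among the listed genes. Genes without a row have no values here, so nothing can be read from this. The part of glia in these rises was not tested.

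The 3 amino acid carriers that fell were Slc38a2, Slc6a9 and Slc6a8. Slc38a2 (chromosome 15, 96687394 to 96699698), a sodium-coupled carrier of small neutral amino acids that cells raise when amino acids run short, was at 8346 and 9573 normalized counts in WT, against 5601 and 5684 in Lats1/2iΔLgr5, a log2 fold change of -0.67 ± 0.13. Slc6a9, a glycine carrier, was at 1102 and 1589 in WT and 765 and 786 in Lats1/2iΔLgr5, and Slc6a8, the creatine carrier, at 1965 and 3005 in WT and 1612 and 1496 in Lats1/2iΔLgr5. In both, WT 2 was well above WT 1. The log2 fold changes of -0.79 ± 0.22 and -0.68 ± 0.23 moved most without WT replicate 2, to -0.51 and -0.34. Their calls depended on WT 2 and on each Lats1/2iΔLgr5 library. Slc6a9 shares 27.8% of its exon bases with Ccdc24 on the opposite strand, whose reads cannot be told apart if the authors counted without strand. No Slc7 light chain and no Slc3 heavy chain was listed, so the heterodimeric amino acid carriers have no values here.

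Of 18 genes of the amino acid response and of amino acid synthesis, 4 rose and 2 fell. Beside this and the other lists of this paragraph, 8.81% of all genes tested were called higher and 11.7% lower. List genes without a row have no values here. The serine and glycine synthesis genes Shmt1, Shmt2, Psat1 and Phgdh rose 3.07-fold, 2.38-fold, 3.51-fold and 2.38-fold. Atf4, the transcription factor of the amino acid response, fell 1.66-fold, and its target Chac1 was at 117 ± 87.7 normalized counts in WT and 18.2 ± 3.67 in Lats1/2iΔLgr5 (SD, n = 2). Of 13 genes of glutathione and cystine use and of related redox defence, 5 fell, among them Hmox1, Nqo1 and Gpx1, and Gpx2 rose. Hmox1 is also counted in the iron and copper list below. Of 16 genes of amino acid sensing by mTORC1, Lamtor5 alone was listed and fell by 0.46 on the log2 scale.

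Metal carriers rose and fell within 1 family. Slc39a14 (ENSMUSG00000022094, chromosome 14, 70303469 to 70351425), which imports zinc, iron and manganese, was at 509.8 and 539 normalized counts in WT, against 875 and 1188 in Lats1/2iΔLgr5. The WT replicates were close together, both Lats1/2iΔLgr5 libraries were higher, and the log2 fold change was 0.98 ± 0.21 (edgeR adjusted p = 0.0137). Slc39a10, a plasma membrane zinc importer, was at 511 and 462 in WT and 1592 and 645 in Lats1/2iΔLgr5. Lats1/2iΔLgr5 1 stood far above the other 3 libraries, and the log2 fold change of 1.20 ± 0.43 became 0.41 without it, short of the threshold. Slc39a9, a family member of the Golgi, was at 5503 and 5520.1 in WT and 3740.3 and 3216 in Lats1/2iΔLgr5 and fell by 0.66 ± 0.13 on the log2 scale; 4.52% of its exon bases overlap Erh on the opposite strand, a gene that rose 1.43-fold.

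Outside that family, Slc41a1, a magnesium carrier, was at 349.6 and 219 in WT and 552 and 623 in Lats1/2iΔLgr5 and rose 2.07-fold. Slc31a1, the high-affinity copper importer, was at 3449 and 3265 in WT and 2584 and 2329.9 in Lats1/2iΔLgr5 and had the smallest change of the 49, a log2 fold change of -0.45 ± 0.13. Beside these, 2 of 13 genes of iron and copper handling rose and 3 fell, where 8.81% of all genes tested were called higher and 11.7% lower. The transferrin receptor gene Tfrc rose 2.51-fold and the copper pump gene Atp7b rose 2.83-fold, while Hmox1, Ftl1 and Atp7a fell 3.23-fold, 1.78-fold and 1.83-fold. None of 4 genes of zinc handling was listed.

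The sodium-proton exchangers gave the largest rise and also falls. Slc9a3 (ENSMUSG00000036123, chromosome 13, 74121515 to 74166064), the apical exchanger NHE3 of intestine and kidney, was at 249 and 97.1 normalized counts in WT, against 827 and 1544 in Lats1/2iΔLgr5. Both Lats1/2iΔLgr5 libraries were above both WT libraries, with a spread of nearly 2-fold within Lats1/2iΔLgr5 and more than 2-fold within WT. The log2 fold change was 2.78 ± 0.53 (edgeR adjusted p = 0.0125), the largest of the 49, and leaving out WT 1 or WT 2 gave 3.61 or 2.25. Slc9b2, which encodes a sodium-proton antiporter of a separate branch, was at 31.5 and 14.3 in WT and 110.5 and 112 in Lats1/2iΔLgr5, a log2 fold change of 2.28 ± 0.52, or 2.94 without WT replicate 1. Among 6 enterocyte markers Fabp2 and Vil1 were listed, and both fell, where 11.7% of all genes tested were called lower. The other enterocyte markers have no values here, and the part of intestinal cells in the rise of Slc9a3 was not tested.

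The 2 abundant gastric exchangers fell. Slc9a2 (chromosome 1, 40680574 to 40769273), the exchanger NHE2 of gastric and intestinal epithelium, was at 9820.4 and 11498 normalized counts in WT, against 5541 and 5634 in Lats1/2iΔLgr5, a log2 fold change of -0.93 ± 0.14. Slc9a4 (chromosome 1, 40580081 to 40630725), the basolateral exchanger NHE4 of parietal and chief cells, was at 7213 and 7058 in WT and 5411 and 4672 in Lats1/2iΔLgr5, a log2 fold change of -0.50 ± 0.13; an opposite-strand transcript, Gm37435, shares 16.7% of its exon bases. The transcription units lie 49.8 kb apart on the same strand of chromosome 1. Of 8 parietal markers Slc9a4, Kcnj15 and Car2 were listed and fell, where 11.7% of all genes tested were called lower. Their summed levels, Slc9a4 included, were 102792 and 99587 normalized counts in WT and 70002 and 65028 in Lats1/2iΔLgr5. Kcnj15 and Car2 were also the 2 listed of 12 genes of acid and bicarbonate handling. The proton pump genes Atp4a and Atp4b were not listed and have no values, and the part of parietal cells in the fall of Slc9a4 was not tested.

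**Figure D3:**
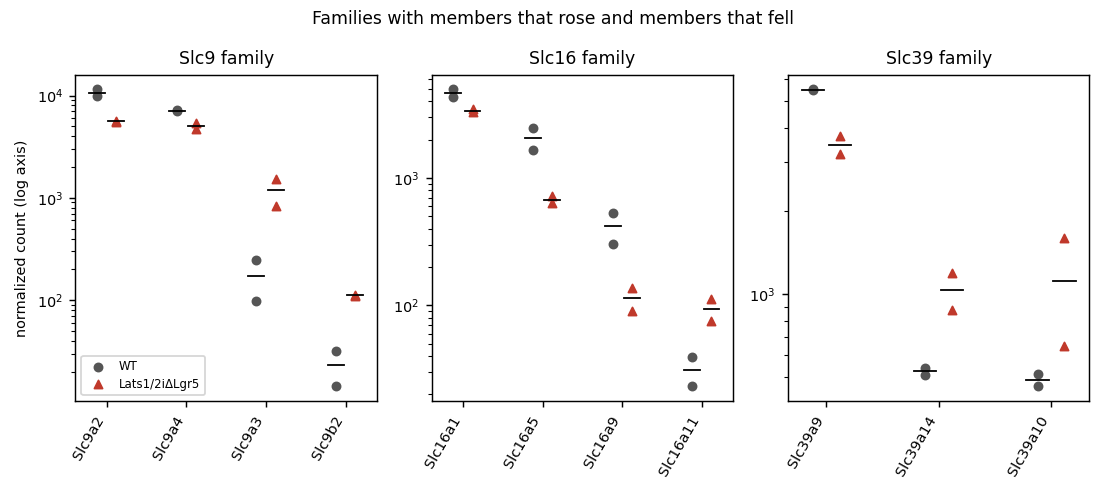
Normalized count (log axis) of listed members of the families Slc9, Slc16 and Slc39, with a point per library and a line at the mean of each genotype (n = 2). Among those shown in each family, the members most abundant in WT fell and the least abundant rose: Slc9a3 and Slc9b2, Slc16a11, and Slc39a14 and Slc39a10.

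Monocarboxylate carriers included some of the largest falls. Slc16a9 (chromosome 10, 70245100 to 70285968), a carrier linked to carnitine, was at 303 and 532 normalized counts in WT, against 137 and 89.9 in Lats1/2iΔLgr5, and its log2 fold change of -1.88 ± 0.39 was the lowest of the 49 (edgeR adjusted p = 0.013); the antisense gene Gm7097 shares 12.7% of its exon bases. Slc16a5, a plasma membrane family member, was at 1666 and 2459.5 in WT and 719 and 637 in Lats1/2iΔLgr5 and fell 3.04-fold. Slc16a1, the lactate and pyruvate carrier MCT1, was abundant, at 4969.5 and 4314 in WT and 3285 and 3463 in Lats1/2iΔLgr5, and fell 1.38-fold. The family's 1 rise was Slc16a11, a carrier known from liver, at 39.1 and 23.2 in WT and 75.1 and 112 in Lats1/2iΔLgr5 or 1.59 ± 0.49 on the log2 scale. The fold of Slc16a11 comes from low counts, and its call was lost without WT 2 and without either Lats1/2iΔLgr5 library.

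Carriers of inorganic anions differed by substrate. Slc5a5 (ENSMUSG00000000792, chromosome 8, 70882889 to 70892757), the sodium-iodide symporter of thyroid and of gastric mucosa, was at 4636 and 7488 normalized counts in WT, against 2304 and 1251 in Lats1/2iΔLgr5. All WT values were above all Lats1/2iΔLgr5 values, with wide spread in both genotypes, and the log2 fold change was -1.77 ± 0.36 (edgeR adjusted p = 0.0129). Slc26a2, a sulfate transporter, was the most abundant of the 49 in normalized counts, at 21591 and 24178 in WT and 13481 and 14022 in Lats1/2iΔLgr5, and fell 1.66-fold. Slc26a10, of the same family, was at 546 and 507 in WT and 187 and 220.4 in Lats1/2iΔLgr5 and fell 2.58-fold. It shares 17.8% of its exon bases with the opposite-strand gene B4galnt1, which fell 1.52-fold.

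Both phosphate carriers of the Slc20 family rose. Slc20a1, a sodium-coupled importer of inorganic phosphate, was at 328 and 333 in WT and 548 and 781 in Lats1/2iΔLgr5, a log2 fold change of 1.01 ± 0.24. Slc20a2, its paralog, was at 202 and 131 in WT and 328 and 384 in Lats1/2iΔLgr5, or 1.10 ± 0.30. These 2 genes are the whole Slc20 family in the annotation.

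The listed carriers of organic anions and cations fell. Slco2a1 (chromosome 9, 102988712 to 103096002), which takes up prostaglandins, was at 13047 and 16328 normalized counts in WT, against 9046 and 8336 in Lats1/2iΔLgr5, a log2 fold change of -0.76 ± 0.16. Slco4a1, which carries thyroid hormone, was at 753 and 1296 in WT and 579 and 564 in Lats1/2iΔLgr5, and Slc22a5, the sodium-coupled carnitine carrier, at 875 and 1350.0 in WT and 675 and 503 in Lats1/2iΔLgr5. Their log2 fold changes of -0.84 ± 0.29 and -0.92 ± 0.28 moved most without WT 2, to -0.40 and -0.57. Their calls depended on WT 2 and on each Lats1/2iΔLgr5 library. Of the Slc4 bicarbonate exchangers and the 9 Slc12 cation-chloride cotransporters none was listed.

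The 6 listed genes placed with the lipid carriers all fell. Slc33a1 (ENSMUSG00000027822, chromosome 3, 63933507 to 63964768), which moves acetyl-CoA into the endoplasmic reticulum, was at 3851 and 3858 normalized counts in WT, against 2268 and 1863 in Lats1/2iΔLgr5. The WT libraries were nearly equal and well above both Lats1/2iΔLgr5 libraries, with a log2 fold change of -0.90 ± 0.15 (edgeR adjusted p = 0.0117). An antisense gene, Gm26850, shares 32% of its exon bases. Slc27a4, a fatty acid transport protein, was at 1953 and 3597 in WT and 1544 and 1591 in Lats1/2iΔLgr5; WT 1 lay nearer to the Lats1/2iΔLgr5 libraries than to WT 2, and the log2 fold change of -0.82 ± 0.30 was -0.32 without WT replicate 2. Slc27a6, of the same family, was at 162 and 92.6 in WT and 33.5 and 45.3 in Lats1/2iΔLgr5. This was a fall of 3.22-fold from the lowest WT level among the genes that fell. The log2 fold change of -1.68 ± 0.46 comes from low counts and moved most without WT 1, to -1.23. Its call depended on WT 1 and on each Lats1/2iΔLgr5 library.

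Slc44a4, of the choline carrier family by number but a carrier of thiamine pyrophosphate in gut epithelium, was at 7028 and 7929 in WT and 5419.8 and 5138 in Lats1/2iΔLgr5 and fell 1.42-fold. Slc10a5 and Slc10a7, both of the bile acid carrier family with unsettled substrates, were at 981 and 1008 in WT and 599 and 354 in Lats1/2iΔLgr5 and at 2244 and 2398 in WT and 1537 and 1343 in Lats1/2iΔLgr5. Their falls were 2.09-fold and 1.61-fold. Of 14 genes of fatty acid use, 6 fell and 3 rose, where 11.7% of all genes tested were called lower and 8.81% higher. Cpt1a, which passes fatty acids into mitochondria on carnitine, fell 2.04-fold, Chpt1, which makes phosphatidylcholine, fell 2.20-fold, and Acsl3, a fatty acid activating enzyme, fell 1.86-fold. Fabp2, a fatty acid binding protein of enterocytes, fell 4.77-fold. The synthesis genes Acaca and Fasn rose 2.02-fold and 1.55-fold, and the fatty acid uptake gene Cd36 rose 4.23-fold, from 93.4 and 81.6 normalized counts (WT) to 134 and 607 (Lats1/2iΔLgr5), most of it in Lats1/2iΔLgr5 2.

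The 5 remaining carriers have substrates that are not settled, and all 5 fell. Slc35g1 was at 5245 and 5892 normalized counts in WT, against 3501 and 3025 in Lats1/2iΔLgr5, a log2 fold change of -0.77 ± 0.14, and Slc22a23 at 6555 and 7238 in WT and 4484 and 4283 in Lats1/2iΔLgr5, or -0.65 ± 0.13. Slc22a18, an imprinted gene, was at 3708 and 4537 in WT and 2460.0 and 1973 in Lats1/2iΔLgr5 and fell 1.86-fold. Slc35f5 was at 5440.2 and 5326 in WT and 3958 and 2757 in Lats1/2iΔLgr5 and Slc35f6 at 1921 and 2413 in WT and 1269 and 1533 in Lats1/2iΔLgr5, falls of 1.60-fold and 1.55-fold.

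Other marker lists also held genes that rose or fell. Of 4 endothelial markers, Kdr and Slc2a1 fell, and Slc2a1 is itself among the 49 carriers. Also lower were 3 of 5 epithelial, 2 of 5 fibroblast and 2 of 5 adipocyte markers, while 2 of 4 endocrine markers and 1 of 7 myeloid markers rose. Of all genes tested, 11.7% were called lower and 8.81% higher. Summed epithelial markers were at 481019 and 602004 normalized counts in WT and at 342454 and 387915 in Lats1/2iΔLgr5. Of 4 pancreas markers, Cela1 rose 1.97-fold, and Cela2a, below the low-count filter of the edgeR fit, had normalized counts of 6.31 (WT 1), 215 (WT 2), 3.62 (Lats1/2iΔLgr5 1) and 0.782 (Lats1/2iΔLgr5 2), so WT 2 stood apart. Without WT 2 the median log2 fold change moved from -0.68 to -0.56 over the 49 carriers and from -0.50 to -0.44 over all listed genes. The falls of Slc6a8, Slc6a9, Slc27a4 and Slco4a1 were among those that were smaller without it. Whether the Cela2a counts bear on these falls was not tested. No chief cell, T cell, B cell or smooth muscle marker had a row. The part of these cell types in the carriers' changes was not tested.

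The carriers that rose had a lower median level in WT than those that fell, though the ranges overlapped. The 14 that rose had a median WT level of 34.1 normalized counts per kilobase of exon (quartiles 10.1 and 55.9), and the 35 that fell had 784 (quartiles 305 and 1363). In all listed genes the corresponding medians were 59.8 and 730, so the same order holds across the table. After the change the medians for the carriers were 90.7 and 422 per kilobase. In WT, Slc22a18 (2426 per kilobase), Slc44a4 (2403), Slc45a3 (2212), Slc5a5 (2070.4) and Slc26a2 (1850.0) headed the order, and Slc29a2 (7.44), Slc9b2 (4.17) and Slc1a2 (2.05) ended it. Summed over the 14 genes, normalized counts were 4307 and 3161 in WT and 8467 and 9077 in Lats1/2iΔLgr5; over the 35 genes they were 151170.1 and 176113 in WT and 99500.1 and 93094 in Lats1/2iΔLgr5. The genes that rose thus held a small share of solute carrier counts in both genotypes. A gene with few counts needs a larger fold to pass a threshold, and how far that shapes the size of the rises was not tested.

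**Figure D4:**
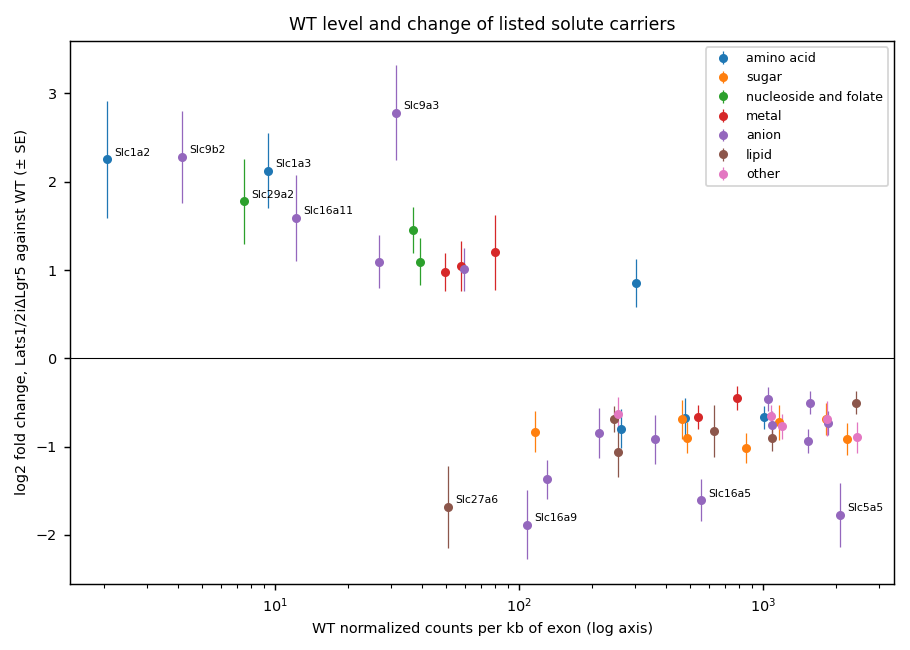
Log2 fold change with its SE (n = 2 libraries per genotype) against WT level in normalized counts per kilobase of exon (log axis) for 48 of the 49 listed solute carriers, coloured by substrate class, with names at changes beyond 1.5. The genes that rose have WT levels of 2.05 (Slc1a2) to 301 (Slc1a5) per kilobase, and the genes that fell 51.1 (Slc27a6) to 2426 (Slc22a18).

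Neighbouring carriers could differ in direction. Slc41a1 and Slc45a3 lie 114 kb apart on the same strand of chromosome 1, and Slc41a1 rose while Slc45a3 fell. Slc9a4 and Slc9a2, the other neighbours within 500 kb among the 49, both fell.

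Windows from 250 bases before to 50 bases after each RefSeq transcript start, of which a gene can have several, some of them inside the gene, were searched on both strands for CACGTG, the E-box that MYC and related factors bind, and for GGAATG, the core that TEAD factors, the DNA-binding partners of YAP, bind; a match to one is never a match to the other. RefSeq windows (GRCm38.p6) were found for 11 of the 14 genes that rose (21 windows) and 27 of the 35 that fell (32 windows). The E-box was in 14.3% of the windows of carriers that rose and 12.5% of those that fell, against 7.15% of all 32851 windows in the table, 11.8% of those of all listed genes that rose and 8.70% of those of all listed genes that fell. The TEAD core was in 23.8% and 9.38%, against 14.7% of all windows, 14.3% of those of listed genes that rose and 12.4% of those of listed genes that fell. Counted by gene, the E-box was present for 3 of the 11 (27.3%) and 4 of the 27 (14.8%). It was present for 8.09% of all genes with windows, 13.7% of listed genes that rose and 10.6% of those that fell. The TEAD core was present for 4 of the 11 (36.4%) and 3 of the 27 (11.1%), against 16.6%, 16.1% and 15.2% in the same order. A gene with more windows has more chances of a match. A match is a description of letters and not a bound site. The stretches below show the E-box before a RefSeq start of 2 genes that rose, Slc29a1 and Slc9a3, and of 2 that fell, Slc16a1 and Slc35e3, and the TEAD core before a RefSeq start of Slc19a1, each 5′ to 3′ along the gene with the motif in capitals. The stretches of Slc9a3, Slc16a1 and Slc35e3 lie upstream of the gene spans in the deposited table, and those of Slc29a1 and Slc19a1 lie inside the spans, before internal starts.
Slc29a1, chr17:45595276-45595361, minus strand: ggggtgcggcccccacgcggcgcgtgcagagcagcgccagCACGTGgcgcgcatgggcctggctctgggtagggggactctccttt
Slc9a3, chr13:74121286-74121371, plus strand: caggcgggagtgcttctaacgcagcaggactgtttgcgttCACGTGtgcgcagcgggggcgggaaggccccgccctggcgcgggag
Slc16a1, chr3:104638424-104638509, plus strand: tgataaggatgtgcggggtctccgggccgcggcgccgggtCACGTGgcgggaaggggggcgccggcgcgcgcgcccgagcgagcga
Slc35e3, chr10:117746393-117746478, minus strand: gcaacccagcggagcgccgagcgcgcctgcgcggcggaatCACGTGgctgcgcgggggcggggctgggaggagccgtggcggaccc
Slc19a1, chr10:77032542-77032627, plus strand: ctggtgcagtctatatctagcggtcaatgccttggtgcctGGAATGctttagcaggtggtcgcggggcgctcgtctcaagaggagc

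Scaling and the loss of a library changed many calls. Since the genotypes do not overlap in any of the 49, leaving out a library could not turn a direction, and none turned under the other scalings. The 14 that rose stayed called under TMM scaling and under DESeq2 median-ratio scaling. TMM computed from the listed genes shifted every fold change up, by 0.36 (DESeq2 factors 0.41) in the median of all listed genes, and 22 of the 35 falls then missed the threshold, among them Slc10a5, Slc10a7, Slc16a1, Slc22a23, Slc22a5, Slc27a4, Slc27a6, Slc2a1, Slc31a1, Slc35a5, Slc35b1, Slc35e3, Slc35f5, Slc35f6, Slc38a2, Slc39a9, Slc44a4, Slc6a8, Slc6a9, Slc9a4 and Slco4a1. The falls that passed on that scale included Slc5a5, Slc16a5, Slc16a9, Slc26a10, Slc2a10, Slc9a2 and Slc33a1. Without WT 1, edgeR called 14 higher and 30 lower. It called 13 and 29 without WT 2, and 7 and 23 without Lats1/2iΔLgr5 1. Over all listed genes its calls were 1038 higher and 1416 lower, 966 and 1213, and 627 and 876 in the same order. Without Lats1/2iΔLgr5 2, edgeR called none of the 49, with adjusted p from 0.0702 to 0.126, and of all listed genes it called 4 higher and 1 lower; 28 of the 49 had an unadjusted p under 0.05. DESeq2 called 12 higher and 29 lower without WT 1, 6 and 18 without WT 2, 4 and 24 without Lats1/2iΔLgr5 1, and 3 and 16 without Lats1/2iΔLgr5 2.

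**Figure D5:**
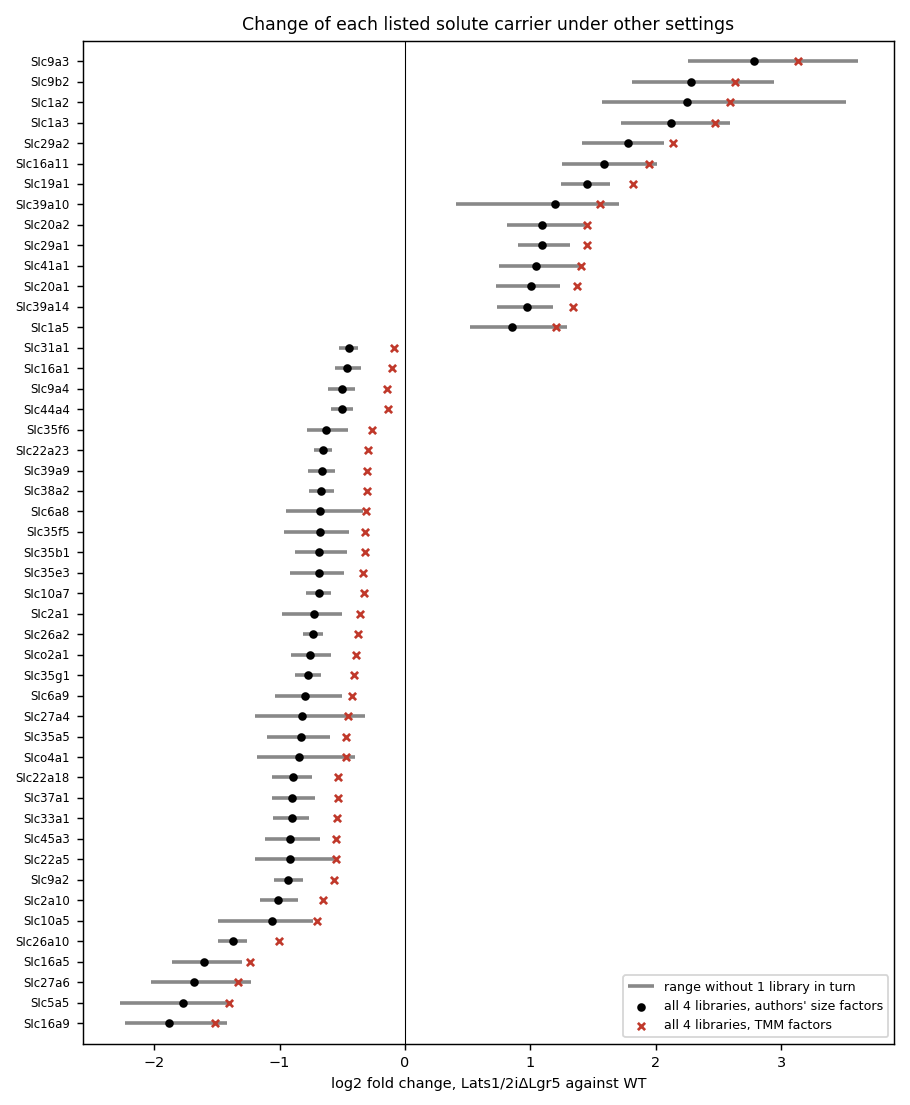
Log2 fold change of 48 of the 49 listed solute carriers with all 4 libraries on the authors' size factors (black points) and on TMM factors (red crosses), with the range over fits that leave out a single library in turn (grey bars). No bar and no cross passes 0; Slc1a2 and Slc39a10 have wide bars, and crosses of Slc31a1 and Slc16a1 lie closest to 0.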

How the data were processed

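The submitters' processing notes name GRCm38, DESeq2, HTSeq and TopHat2 2.1.1; whether HTSeq used strand is not given in the sources used here. Libraries were strand-marked, per the labels' protocols. The deposited table gives whole-number counts, the authors' base mean (a signal: mean normalized count), a log2 fold change with its SE, a Wald score, p-value and adjusted p-value, per the file headers. The largest deposited adjusted p-value is 0.05. Symbols came from GENCODE M21 (2698 of 2701 IDs); 1 was added to deposited starts. The authors' size factors were recovered from base means (largest deviation 0.0119%).

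Counts were fitted with edgeR 4.0.16 (quasi-likelihood, filterByExpr for calls, Benjamini-Hochberg over all listed genes), genotype as the factor; SE is the log2 fold change over the root of F. The code was tested on simulated data. Replicates differed beyond sampling noise (chi-square per degree of freedom 115 and 108). Alternatives were TMM, DESeq2 1.42.0 factors and test, no filter, a replicate block and leaving out libraries. Every listed solute carrier is named except 1, which is in the counts and medians but not reported here; up to 8 per class, by smallest deposited adjusted p, heavy and light chain pairs, and members unlike their family get values per library, and pathway lists up to 4 names by the same order. Slc20a1, Slc20a2, Slc9a4, Slc9b2, Slc22a5, Slc16a1 and Slco4a1, and Phgdh, Chac1, Acaca, Fasn, Cd36 and Atp7a, fall outside this rule and were chosen after their values were seen. Substrate classes follow family number with exceptions. Members and lists were chosen with earlier results of these data known.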

Additional observations from a re-analysis of the deposited data

How the results depend on the processing

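Calls with edgeR's quasi-likelihood test were 14 higher and 35 lower. The lower count was 13 with TMM factors and 11 with DESeq2 median-ratio factors, which turned the share of higher calls from 28.6% to 51.9% and 56.0%, and the median log2 fold change of the 49 from -0.68 to -0.32 and -0.28. Both factors assume that most listed genes do not change. Without 1 library in turn the higher count ranged from 0 to 14 and the lower count from 0 to 30, both lowest without Lats1/2iΔLgr5 replicate 2; the median ranged from -0.76 to -0.56. DESeq2's Wald test and no filter gave the same calls. Same-numbered libraries deviated with r = -0.16, and the replicate block kept all 49 calls; the crossed pairing, added after the data were seen, kept 13 higher and 35 lower. The widest errors were 0.66 for Slc1a2 and 0.53 for Slc9a3 (SE, log2).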
